A study of Arabidopsis thaliana with 9 samples.

Results

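The mitochondrial genome of Arabidopsis thaliana, a DNA molecule of the organelle that is separate from the nuclear chromosomes, was represented by 4 measured transcripts, ccb382, nad4, cox1 and orfX. They were chosen with earlier results of these data known. The probe sets paired with those 4 genes in the platform's gene table were 4 of the 22810 on the array, 1 for each gene. They are 4 of the 16 mitochondrial genes that had a probe set to themselves, and the only ones of these bright enough to be tested. Shares over all probe sets are given beside their counts as background, not as a test of the members. The other 12 genes, with 19 probe sets, are described after them. RefSeq now calls ccb382 ccmFN1 and orfX mttB, and the older names of the table are kept here. RNA of whole seedlings, 3 days in the light at 22 °C after 3 days in the cold and dark, was measured in 3 genotypes on 3 arrays each. Col-0 was the untransformed wild type. The genotype called SPL13 was Col-0 carrying an added, non-mutated copy of SPL13 under the native promoter. The genotype called mSPL13 was Col-0 carrying a mutant copy under the native promoter, which the study's title describes as resistant to microRNA156. The SPL13 protein is a plant transcription factor (SQUAMOSA-PROMOTER-BINDING PROTEIN-LIKE13), and this microRNA represses a group of related SPL genes. The replicates were labelled as biological and from separate seed lots. How many transformed lines stood behind them is not stated in the labels. In whole seedlings, fewer cells of a type and less RNA per cell cannot be told apart.

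Plant mitochondria keep a small set of genes for the respiratory chain, for their own ribosomes and for the maturation of cytochrome c, while most of their proteins are made from nuclear genes and imported. Respiratory complexes I, III, IV and V therefore hold subunits from both genomes. Mitochondrial genes are transcribed by phage-type RNA polymerases encoded in the nucleus, and their RNAs are edited, spliced, trimmed and degraded by nuclear-encoded proteins. In plant mitochondria a poly(A) tail marks an RNA for degradation, and the primer used for cDNA synthesis here is not named in the labels. The protein of ccb382 is the N-terminal part of CcmF, which acts in attaching haem to cytochrome c and is split over several reading frames in Arabidopsis. The nad4 gene encodes a membrane subunit of complex I, the proton-pumping NADH dehydrogenase. The cox1 product is the catalytic core subunit of complex IV, cytochrome c oxidase, and orfX encodes a membrane protein related to TatC, a component of the twin-arginine protein export system.

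The mean signals of the 4 mitochondrial transcripts were lowest in SPL13 and highest in mSPL13. Between these genotypes the mean signal differed 5.89-fold for ccb382, 7.05-fold for nad4, 3.58-fold for cox1 and 2.67-fold for orfX. In every one of the 4 the mean of Col-0 lay between the means of SPL13 and mSPL13. The difference between mSPL13 and Col-0 did not pass limma's test for any member. The signals are intensities on a linear scale with the same global scaling on each array, so the signals of different probe sets are not set against each other as levels.

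For cytochrome c maturation, the ccb382 signal was 1586.4, 845.1 and 519.7 in Col-0 replicates 1 to 3. It was 63.2, 292.1 and 221.6 in SPL13 and 1457.2, 812.9 and 1129.3 in mSPL13. All 3 SPL13 arrays lay below all 6 others, while Col-0 and mSPL13 overlapped. The means were 984 ± 547 for Col-0, 192.3 ± 117 for SPL13 and 1133 ± 322 for mSPL13 (SD, n = 3 each). The highest Col-0 array exceeded the lowest 3.05-fold, and SPL13 replicate 1 lay 4.62-fold under SPL13 replicate 2.

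The signal of nad4, the complex I subunit, was 603.8, 249.5 and 212.1 in Col-0, 45.4, 104.8 and 102.7 in SPL13, and 593.8, 344.9 and 845.1 in mSPL13. Again the SPL13 arrays were the 3 lowest, and the other genotypes overlapped. Its means were 355 ± 216, 84.3 ± 33.7 and 594.6 ± 250.1 (SD, n = 3 each) in that order. Col-0 replicate 1 stood above the other Col-0 arrays for nad4 as it did for ccb382.

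The signal of cox1, the oxidase core subunit, was 332.0, 333.0 and 153.3 in Col-0, 131.0, 140.4 and 104.8 in SPL13, and 502.7, 348.4 and 497.3 in mSPL13. It was the one member whose 3 genotypes were fully apart, with SPL13 lowest, Col-0 between and mSPL13 highest. Means were 273 ± 103, 125.4 ± 18.4 and 449 ± 87.6 (SD, n = 3 each). The lowest Col-0 array was only slightly above the highest SPL13 array.

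For orfX, the TatC-related gene, the signal was 176.0, 97.7 and 80.9 in Col-0, 46.0, 87.0 and 77.0 in SPL13, and 203.2, 159.0 and 198.0 in mSPL13. The mSPL13 arrays stood apart from SPL13, but Col-0 overlapped with both transformed genotypes. Means were 118.2 ± 50.8, 70.0 ± 21.4 and 187 ± 24.2 (SD, n = 3 each). This was the dimmest member, at the 43rd percentile of mean signal among the probe sets, while ccb382 was at the 80.4th. Its probe set name ends in _s_at, which the manufacturer gives to probe sets that match more than 1 transcript.

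**Figure D1:**
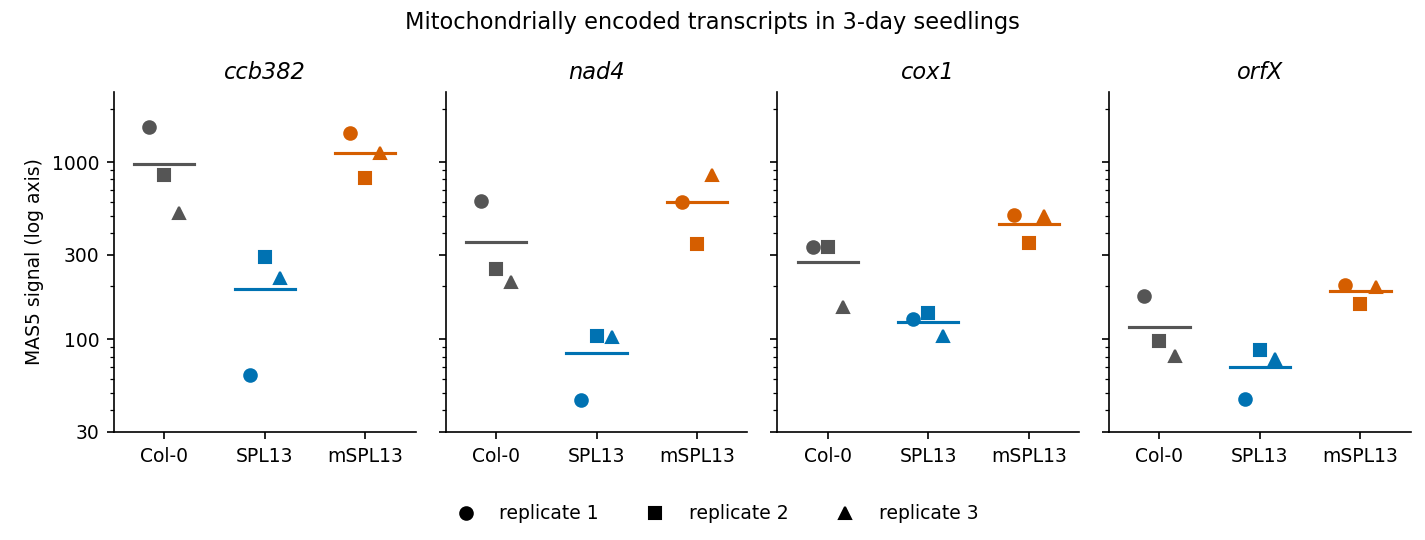
MAS5 signal on a log axis for ccb382, nad4, cox1 and orfX in each of the 9 arrays, with symbols for the replicate number and horizontal lines for the means of 3 arrays. The 3 SPL13 arrays are the lowest 3 for ccb382, nad4 and cox1, and mSPL13 and SPL13 do not overlap for any of the 4.

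Resistance to the microRNA is what separates mSPL13 from SPL13 by design. All 4 mitochondrial transcripts rose in it. Of the 13647 probe sets tested, 1.86% were called higher, and 3.03% were called in either direction. Differences are given as log2 fold changes of the signal plus 20.7, a scale that understates changes of dim probe sets, each with the moderated standard error of limma. The value was 2.60 ± 0.43 for ccb382 (95% interval 1.68 to 3.52, adjusted p = 0.00488). For nad4 it was 2.52 ± 0.37 (1.73 to 3.31, adjusted p = 0.00287). Among all tested probe sets nad4 ranked 37th and cox1 36th by p. The cox1 change was 1.68 ± 0.24 (1.15 to 2.20, adjusted p = 0.00287), and that of orfX was 1.22 ± 0.25 (0.68 to 1.75, adjusted p = 0.0172). The median of the 4 was 2.1, while the median over all probe sets tested was 0.00. In all 4 the 3 mSPL13 arrays exceeded the 3 SPL13 arrays, which held for 12.3% of probe sets tested. The call for orfX was lost without SPL13 replicate 1 (1.01, adjusted p = 0.0644), mSPL13 replicate 1 (1.16, 0.0766) or mSPL13 replicate 3 (1.17, 0.0718), and when dim probe sets were kept in the test (adjusted p = 0.0638). Without SPL13 replicate 1, which was the lowest array for ccb382, nad4 and orfX, the ccb382 change was 2.03 (adjusted p = 0.00748) and the nad4 change was 2.22 (adjusted p = 0.00748).

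An added, non-mutated copy of the gene is what separates SPL13 from Col-0 by design. SPL13 was also transformed and Col-0 was not, and the copy and the transformation cannot be told apart here. None of the 4 members passed limma's test in this comparison, where 0.0366% of probe sets were called lower and 0.0513% either way. The ccb382 value was -2.30 ± 0.43 (95% interval -3.22 to -1.37, adjusted p = 0.0599). The nad4 value was -1.75 ± 0.37 (-2.54 to -0.97, adjusted p = 0.101). On the same scale and from the same fit, the difference between mSPL13 and SPL13 was 2.60 for ccb382 and 2.52 for nad4. For cox1 the value was -0.94 ± 0.24 (-1.46 to -0.42, adjusted p = 0.255) and for orfX -0.58 ± 0.25 (-1.12 to -0.05, adjusted p = 0.52). Unadjusted, all 4 were under 0.05 (0.000105, 0.000303, 0.00173 and 0.0343 in the same order), as were 4.49% of probe sets in that direction and 8.83% in either. The SPL13 arrays lay below the Col-0 arrays in 3 of 4 members, against 6.07% of probe sets, and the median of the 4 was -1.35. One array decided these calls: without Col-0 replicate 3, the lowest Col-0 array in all 4 members, ccb382 (-2.67, adjusted p = 0.0129), nad4 (-2.03, 0.0249) and cox1 (-1.28, 0.00873) passed the test and orfX did not (-0.78, 0.177). The number called over all 13647 probe sets also rose without this array, from 7 to 148, and over the 66 plastid ones from 3 to 33. With each array centred on its median, ccb382 passed as well (-2.28, adjusted p = 0.0458).

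Set against the wild type, mSPL13 showed smaller differences, and none of the 4 members passed limma's test. In this comparison 2.07% of probe sets were called higher and 4.37% in either direction. The value was 0.30 ± 0.43 for ccb382 (95% interval -0.62 to 1.23, adjusted p = 0.753). It was 0.77 ± 0.37 for nad4 (-0.02 to 1.56, adjusted p = 0.26). These intervals include 0 and also include a rise of more than 1 on the log2 scale for both genes. The cox1 value was 0.73 ± 0.24 (0.21 to 1.26, adjusted p = 0.107), and the orfX value was 0.63 ± 0.25 (0.10 to 1.17, adjusted p = 0.174). Unadjusted, cox1 and orfX were under 0.05, as were 10.5% of probe sets in that direction and 20% in either, and the groups were apart for cox1 alone, against 12.6%. Without Col-0 replicate 3 the ccb382 value turned to -0.071. The 3 comparisons share arrays in pairs, so their values are not independent of each other. Taken over the 3 genotypes at once with limma's moderated F test, all 4 members passed, where 3.8% of probe sets did. The adjusted p of this F test was 0.00546 for ccb382, 0.00414 for nad4, 0.00432 for cox1 and 0.0324 for orfX. When dim probe sets were kept in the test, 3 of the 4 passed. The SPL13 means of nad4 (84.3) and orfX (70.0) were under the signal required of tested probe sets. Both genes entered the test through Col-0 and mSPL13.

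**Figure D2:**
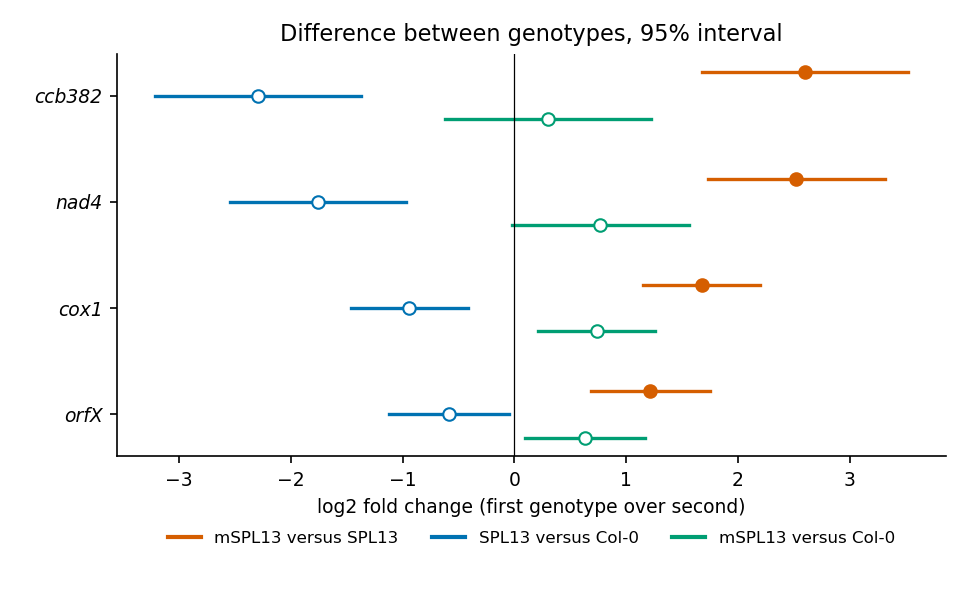
Log2 fold change of each member in the 3 comparisons, with 95% intervals as lines from the fit to all 9 arrays. Filled points passed an adjusted p of 0.05; only the 4 points of mSPL13 versus SPL13, from 1.22 for orfX to 2.60 for ccb382, are filled.

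The members varied more between replicates than most probe sets did. The standard deviation within genotypes on the log2 scale was 0.776 for ccb382, 0.648 for nad4, 0.394 for cox1 and 0.371 for orfX. The median over the tested probe sets was 0.178, and the members lay between the 96th and the 99.8th percentile of it. Over the plastid probe sets the median was 0.543, above the values of cox1 and orfX and below those of nad4 and ccb382. A wide spread was therefore not particular to the members. This spread was largely common to ccb382, nad4 and orfX. Their deviations from the genotype means correlated at 0.842 to 0.949 over the 9 arrays, which share labelling and scaling within each array. The deviations of cox1 correlated with those of the others at 0.513 to 0.553. With the genotype differences left in, the 6 pairs correlated at 0.852 to 0.956 over the 9 arrays.

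The size of the difference between mSPL13 and SPL13 fell into a larger pair, ccb382 and nad4, and a smaller pair, cox1 and orfX. The ccb382 difference exceeded that of cox1 by 0.92 and that of orfX by 1.38, and nad4 exceeded them by 0.85 and 1.31. In these 4 contrasts the arrays of the genotypes did not overlap, and each reached the smallest p that 3 against 3 arrays allow (two-sided exact permutation test, p = 0.1, 0.15 adjusted over 6 pairs). The difference between ccb382 and nad4 was 0.08 (exact p = 0.8) and that between cox1 and orfX was 0.46 (exact p = 0.2). The added constant shrinks the change of orfX more than that of ccb382, since orfX is dimmer. In RefSeq's TAIR10.1 annotation, mttB (orfX) is the next protein-coding gene after nad4, while ccmFN1 (ccb382) lies between ccmC and cox3 and cox1 between nad1 and rps4.

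The other 19 probe sets paired with 1 mitochondrial gene covered 12 more genes, so that 16 of the 32 protein-coding gene names in RefSeq's mitochondrial annotation had a probe set of their own. None of the 19 reached the filter on mean signal, which corresponds to a signal of about 100. The brightest was ccb452 (ccmFC), another cytochrome c maturation gene, just below the filter with means of 107.8 ± 19.1 for Col-0, 78.8 ± 33.2 for SPL13 and 98 ± 14.6 for mSPL13 (SD, n = 3 each). Its mean log2 value was 6.82 against a filter of 6.92, and orfX was the member nearest above it, at 7.07. The SPL13 means of orfX (70.0) and nad4 (84.3) were themselves under the filter's signal, so that these 2 members entered the test through Col-0 and mSPL13. Over the 19, the median of the probe sets' median signals was 17.0. Subunits of complex I (nad1, nad2, nad4L, nad5, nad6, nad7 and nad9) were among them, as were cox2 of complex IV, ccb206 and ccb203 of cytochrome c maturation, and matR, which encodes an intron maturase.

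Of these 19 dim probe sets, 13 had a higher mean in mSPL13 than in SPL13, as did 51.3% of all 22746 probe sets other than controls, and limma called none in any of the 3 comparisons when they were tested without the filter. At an unadjusted p under 0.05 there were 0 in mSPL13 against SPL13, 0 in SPL13 against Col-0 and 2 in mSPL13 against Col-0. The shares of all probe sets under it without the filter were not counted. For nad9 the means were 30.2 ± 12.1, 31.5 ± 22.1 and 55 ± 15.8 in Col-0, SPL13 and mSPL13, with overlap between the transformed genotypes. For cox2 they were 50.6 ± 20.4, 36.4 ± 28.0 and 42.7 ± 7.43 (SD, n = 3 each), also with overlap. The 7 probe sets of nad1 ranged between means of 3.50 and 44.9 and did not order the genotypes alike. The matR signal stayed between 1.6 and 4.6 on all arrays. These data give no call for the 12 genes in either direction.

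**Figure D3:**
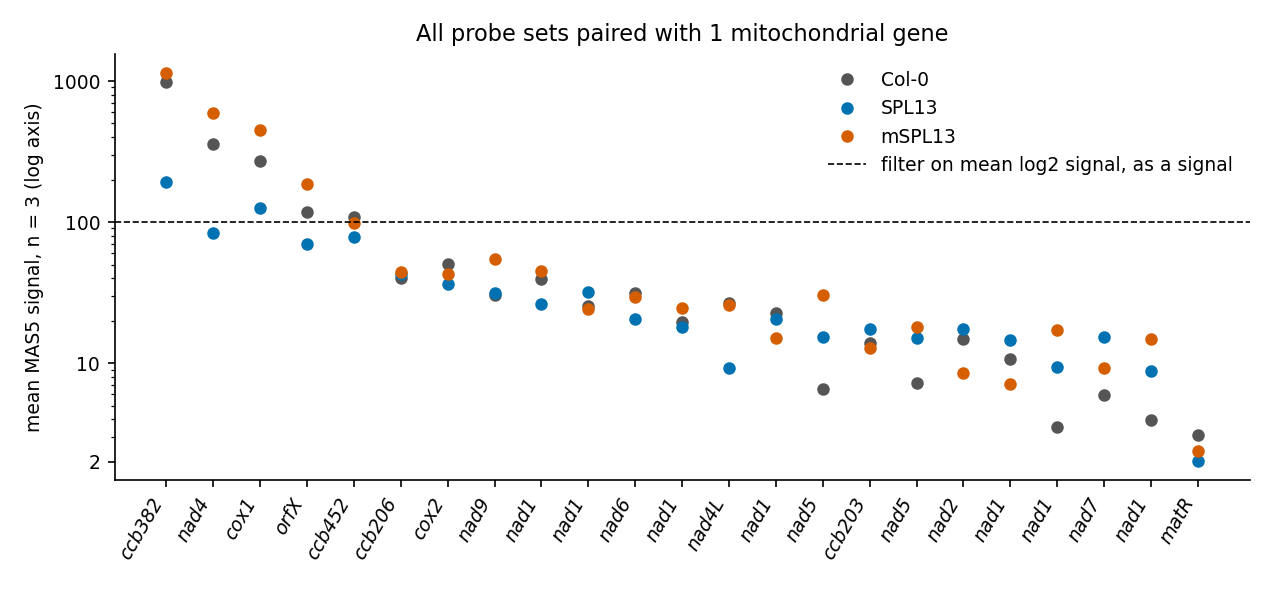
Mean MAS5 signal (n = 3, log axis) of all 23 probe sets paired with 1 mitochondrial gene, by genotype, ordered by mean log2 signal, with the filter drawn as a dashed line. The 4 members are the only ones above the line on average, and the 19 others have no common order of genotypes.

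A further 12 probe sets matched a mitochondrial gene together with another gene. For 11 of them the other gene has an AT2G07 locus name. These names belong to the part of nuclear chromosome 2 into which a large copy of the mitochondrial genome was inserted in Arabidopsis. RNA from the organelle and from the nuclear copy cannot be told apart by such probe sets. Whether the probes of the 4 members also match the nuclear copy was not tested.

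Of these 12, 4 passed the filter, and all 4 rose in mSPL13 against SPL13, as did 1.86% of the 13647 probe sets tested. Without the filter limma called 1 of the 12, that of rps3 and rpl16 (adjusted p = 0.0327), as it did 236 of all 22746 probe sets. At an unadjusted p under 0.05 there were 7 of the 12. The share of all probe sets under it in that fit was not counted, so the 7 are not read as a result. The probe set shared by the ribosomal protein genes rps3 and rpl16 had signals of 728.2, 241.7 and 167.9 in Col-0, 26.5, 102.0 and 74.9 in SPL13, and 544.0, 326.7 and 599.3 in mSPL13. Its change was 2.59 ± 0.43 (adjusted p = 0.00516), close to the values of ccb382 and nad4, and its lowest array was again SPL13 replicate 1. Its mean in SPL13 (67.8) was under the filter's signal, as was that of the probe set of rps4 and AT2G07734 (68.9), so these entered the test through the genotypes where they were high. The probe set shared by atp1, a subunit of the ATP synthase, and AT2G07698 changed by 1.56 ± 0.30 (adjusted p = 0.0119). It also entered the test through Col-0 and mSPL13. Its SPL13 mean on the log2 scale was just under the filter, with replicate 1 at a signal of 55.7. Smaller changes were seen for the probe set shared by rps4 and AT2G07734 (0.88 ± 0.20, adjusted p = 0.0305) and for that shared by atp9, another ATP synthase subunit, and AT2G07671 (0.82 ± 0.18, adjusted p = 0.0286). None of the 4 passed in SPL13 against Col-0 (-2.02 to -0.61) or in mSPL13 against Col-0 (0.08 to 0.57). Over all 12, tested or not, the mean was higher in mSPL13 than in SPL13 in 12 and lower in SPL13 than in Col-0 in 11. Over all 22746 probe sets other than controls these shares were 51.3% and 49%. The counts are of raw mean signals and include probe sets too dim for the filter. On the log2 scale without the filter, the probe set of rps12 and AT2G07675 changed by -0.0006 in mSPL13 against SPL13.

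The plastid genome, the other organelle genome of the seedling, had its median in the same order of genotypes. Of 66 tested probe sets paired with 1 plastid gene, 48 rose and none fell in mSPL13 against SPL13, with a median log2 fold change of 1.61. Against Col-0, 3 fell in SPL13 (median -1.33) and 2 rose in mSPL13 (median 0.15). Of all 13647 probe sets tested, 1.86% rose in mSPL13 against SPL13. Against Col-0, 0.0366% fell in SPL13 and 2.07% rose in mSPL13. The 2 plastid probe sets that rose against Col-0 are near that last share and are not read as a result. The change of ccb382 between mSPL13 and SPL13 was exceeded in size by 7 of the 66 plastid probe sets, that of nad4 by 8, that of cox1 by 32 and that of orfX by 43. In size, the members lay within the range of the plastid transcripts.

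Array by array, the median of the 4 members relative to the Col-0 mean was 0.69, -0.12 and -0.61 in Col-0, -1.68, -1.11 and -1.31 in SPL13, and 0.80, 0.25 and 0.80 in mSPL13 on the log2 scale. The plastid median was 0.18, 0.06 and -0.28, then -2.35, -0.99 and -0.80, then 0.15, -0.03 and 0.30. In both series of medians the 3 SPL13 arrays were the lowest, and SPL13 replicate 1 was the lowest of all. Relative to the plastid median of the same array, ccb382 was still 1.08 lower in SPL13 than in mSPL13 and nad4 1.00 lower, without overlap (two-sided exact permutation test, p = 0.1, the smallest possible, 0.15 adjusted over 6 tests). The cox1 difference relative to the plastid median was 0.15 (exact p = 0.8) and the orfX difference was -0.31 (exact p = 0.5). None of these passed a threshold of 0.05, which 3 against 3 arrays cannot reach.

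Nuclear genes for the same respiratory complexes gave no call. Of 45 tested probe sets for nuclear-encoded subunits and assembly factors of complexes I to V, none was called in any of the 3 comparisons by limma. At an unadjusted p under 0.05 there were 5 in mSPL13 against SPL13, 1 in SPL13 against Col-0 and 4 in mSPL13 against Col-0, where 16.7%, 8.83% and 20% of all probe sets tested were under it. Their median log2 fold change was -0.06 in mSPL13 against SPL13, 0.04 in SPL13 against Col-0 and -0.03 in mSPL13 against Col-0. In mSPL13 against SPL13 they ranged from -0.41 to 0.36, below the change of every mitochondrial member. The 15 tested probe sets of complex I, of 27 genes listed, had a median of -0.05. AT2G33220, the GRIM-19 subunit of complex I, had the smallest p among them, with a value of -0.36 ± 0.13 (adjusted p = 0.158). For nad4 relative to the median of its nuclear partners in the same array, the difference between mSPL13 and SPL13 was 2.58, without overlap (two-sided exact permutation test, p = 0.1, the smallest possible, 0.15 adjusted over 6 tests).

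Complex IV had 9 tested probe sets of 19 genes listed, with a median of -0.07, and cox1 relative to that median differed by 1.71 between mSPL13 and SPL13 (exact p = 0.1, 0.15 adjusted). The value furthest from 0 in this list was that of AT5G57815, at 0.36 ± 0.15 (adjusted p = 0.225). Complex III and cytochrome c were represented by 14 tested probe sets of 17 genes, complex II by 4 of 10 and complex V by 3 of 9. The 3 of complex V, the ATP synthase, had values of -0.34 to -0.07 in SPL13 against Col-0 (median -0.25) and of -0.31 to -0.23 in mSPL13 against Col-0 (median -0.26), with 1 and 2 under an unadjusted p of 0.05. In mSPL13 against SPL13 their values were -0.23 to 0.08. Over all probe sets tested, 8.83% in SPL13 against Col-0 and 20% in mSPL13 against Col-0 were under an unadjusted p of 0.05. CYTC-2, a cytochrome c gene whose product needs the haem that CcmF helps attach, had values of -0.31 ± 0.15 against SPL13 (adjusted p = 0.333) and -0.53 ± 0.15 against Col-0 (adjusted p = 0.0631) in mSPL13. CCMH, the one tested nuclear gene of the cytochrome c maturation list, had a mean signal of 134.5 ± 17.2 for Col-0, 157.7 ± 17.6 for SPL13 and 149 ± 11.7 for mSPL13 and was not called (-0.07 ± 0.16 in mSPL13 against SPL13, adjusted p = 0.882).

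**Figure D4:**
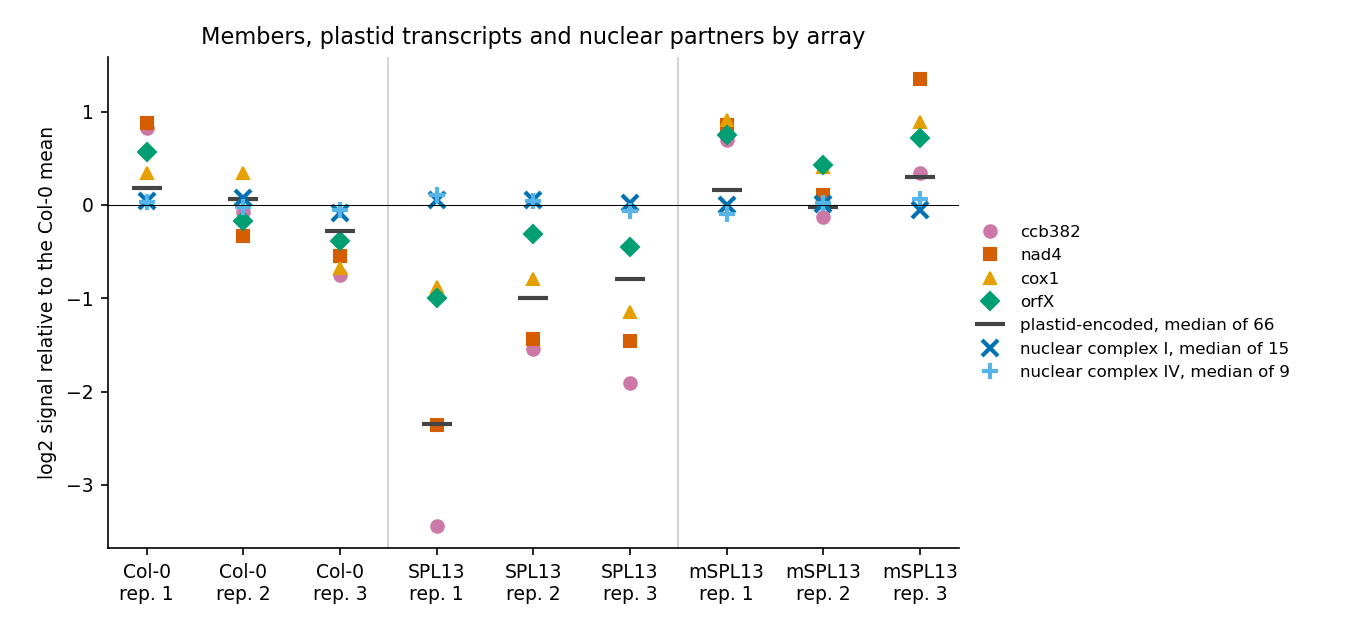
Log2 signal relative to the Col-0 mean in each array for the 4 members, with bars for the median of 66 plastid-encoded probe sets and crosses for the medians of 15 nuclear complex I and 9 nuclear complex IV probe sets. Members and plastid transcripts are low in the 3 SPL13 arrays, down to -3.44 for ccb382 in replicate 1, while both nuclear medians stay between -0.10 and 0.11 in all 9 arrays.

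Nuclear genes that act on mitochondrial DNA and RNA were sparsely covered, and limma called none of the 3 that were tested in any comparison, nor was any under 0.05 unadjusted. Of 36 genes listed for mitochondrial transcription and RNA processing, 2 were tested. AT5G46920, the intron maturase nMAT2, had a value of 0.14 ± 0.18 in mSPL13 against SPL13 (adjusted p = 0.76). AT5G14580, the mitochondrial polynucleotide phosphorylase that degrades RNA, had 0.08 ± 0.17 (adjusted p = 0.86). OSB1, a DNA-binding protein that limits recombination of the mitochondrial genome, had 0.09 ± 0.21 (adjusted p = 0.885) and was the one tested gene of 10 listed for DNA maintenance. The phage-type RNA polymerases had no tested probe set in these lists, so no value is given for the enzymes that transcribe the 4 members.

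Alternative respiration, the non-phosphorylating bypass of the respiratory chain, had 5 tested genes of 14, and limma called none, with 2, 0 and 2 under an unadjusted p of 0.05 in the 3 comparisons (mSPL13 against SPL13, SPL13 against Col-0 and mSPL13 against Col-0). AT2G21640, a nuclear gene known to respond to oxidative stress of mitochondria, came nearest, with a mean signal of 194.4 ± 56.6 for Col-0, 165.6 ± 27.9 for SPL13 and 279.3 ± 41.3 for mSPL13 and a value of 0.69 ± 0.19 in mSPL13 against SPL13 (adjusted p = 0.0741). NDB2, an external NAD(P)H dehydrogenase, had -0.41 ± 0.15 (adjusted p = 0.185). In the tricarboxylic acid cycle 7 of 17 genes were tested and limma called none, with a median of -0.08 in mSPL13 against SPL13 and 0, 0 and 1 under an unadjusted p of 0.05. Over all probe sets tested, the shares under an unadjusted p of 0.05 were 16.7%, 8.83% and 20% in the same order of comparisons. Such small counts in either list are not read as a result.

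Likeness to the members over the 9 arrays was described by Pearson's r with the mean of the 4 mean-centred log2 profiles. The plastid probe sets with the highest r were ycf3, a photosystem I assembly factor (0.987), rpl20 of the plastid ribosome (0.976), rbcL, the large subunit of Rubisco (0.973), psbT of photosystem II (0.970) and rpoC1 of the plastid RNA polymerase (0.969). The median r was 0.878 over the 66 plastid probe sets and 0.00 over 7227 nuclear ones. Among nuclear genes AT2G07708 came first (0.963), then UBP25, a ubiquitin-specific protease gene (0.950), AT2G02160 (0.944), AT2G41840 (0.928) and AT5G53800 (0.925). AT2G07708 bears the AT2G07 locus name of the inserted region on chromosome 2, and its probe set name ends in _s_at. It counts as nuclear by the gene table alone. Whether its signal came from the nuclear copy or from organelle RNA was not tested. The mean signal of AT2G07708 was 118.6 for Col-0, 57.8 for SPL13 and 173.3 for mSPL13, and it rose by 1.31 in mSPL13 against SPL13 (adjusted p = 0.0108). Its SPL13 mean was under the filter's signal of about 100, so it entered the test through the genotypes where it was high. It was also picked by a likeness that contains the genotype differences, so its call is not separate support. Of the 100 tested probe sets most like the members, 33 were plastid-encoded, 26 nuclear and 31 without a listed gene. Of the rest, 3 were paired with several genes including a mitochondrial one, and 7 with several other genes. Among all 13647 tested, 66 were plastid-encoded and 7227 nuclear.

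The members differed in which single profile was nearest. The profile nearest to ccb382 was rbcL (0.989), then plastid rps4 (0.984) and atpF (0.979). For nad4 it was rpl20 (0.990), then ycf3 (0.985) and psbT (0.981). The nearest to cox1 were AT5G20600 and psbB (both 0.953) and ndhG (0.951). For orfX the nearest were AT2G02160 (0.978), AT2G07708 (0.962) and AT5G49530 (0.955). The 9 arrays hold 3 genotypes, so these correlations contain the differences between genotypes as well as the spread within them.

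The arrays were alike in overall signal, with medians of 175.6 to 190.8, and any pair correlated at 0.959 to 0.988 across the tested probe sets. The 3′ over 5′ signal ratio of control transcripts was 0.838 to 1.1 for GAPDH, 1.05 to 1.28 for ubiquitin and 2.21 to 3.21 for actin. For ubiquitin the SPL13 arrays (1.05 to 1.09) lay below the mSPL13 arrays (1.1 to 1.28), and for GAPDH the Col-0 arrays (0.944 to 0.999) did (mSPL13 1.01 to 1.1), while the other pairs of genotypes overlapped. The control probe set for 25S ribosomal RNA had signals of 190.7, 207.8 and 284.1 in Col-0, 79.3, 127.5 and 216.7 in SPL13, and 206.3, 195.5 and 260.2 in mSPL13. Its lowest array was SPL13 replicate 1, as for ccb382, nad4, orfX and the plastid median, and the part of this control and of the 3′ over 5′ ratios in the result was not tested. Of the root markers, 4 of 6 were tested, and NAI2, an endoplasmic reticulum body gene, fell in mSPL13 against SPL13 (-0.60 ± 0.11, adjusted p = 0.0097) and against Col-0 (-0.67 ± 0.11, adjusted p = 0.00377). PYK10, EXPA7 and EXPA18 were not called in any comparison, with values of -0.15 to 0.22 in mSPL13 against SPL13, and no root marker was called in SPL13 against Col-0. The nuclear photosynthesis genes PRK, RCA and LHCB4.2, which mark green tissue, were called by limma in none of the 3 comparisons (1, 1 and 0 under an unadjusted p of 0.05, against 16.7%, 8.83% and 20% of all probe sets tested), and their values in mSPL13 against SPL13 were -0.24 to 0.21. Seed and embryo markers had no probe set in the gene table.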

How the data were processed

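The deposited values are linear-scale intensity readings of each probe set. The submitters' processing notes name GCOS and MAS5 as the authors' tools. RNA was labelled by T7 transcription of cDNA made from total RNA, per the labels' protocols. The 64 control probe sets were left out of the tests. Gene names came from the platform's gene table, matched to RefSeq's TAIR10.1 gene table by symbol or synonym for the mitochondrial genes.

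For the tests 20.7, the 20th percentile of the signals, was added before taking log2. A filter at the 40th percentile of the mean log2 value (6.92) left 13647 probe sets. The limma model (version 3.58.1, R 4.3.3) had a mean for each genotype and used all 9 arrays (lmFit, eBayes with trend, 6 residual and 7.92 prior degrees of freedom), and p-values were Benjamini-Hochberg adjusted over all probe sets tested. A probe set was called at an adjusted p under 0.05. "Rose" and "fell" mean called. Within-array differences were compared with exact permutation tests in scipy 1.17.1, and the figures used matplotlib 3.10.9. The fit was tested on simulated data.

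The members and gene lists were chosen with earlier results of these data known. The named genes were the members, every other mitochondrial probe set, up to 4 tested genes per list with the smallest p, and the probe sets most like the members (5 plastid and 5 nuclear for their mean, 3 for each member). The lists of mitochondrial protein import and of seed and embryo markers had no probe set paired with them. Alternatives were other pseudocounts, filters, normalizations and variance models, array weights, a block for the replicate number, a fit restricted to the groups compared, and each array left out. The number of arrays limits the precision. Detection calls, scanner files and sequences were not used here.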

Additional observations from a re-analysis of the deposited data

Results flagged for a closer look

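A control probe set that was left out of the tests separated the transformed from the untransformed seedlings. Its signal was at most 29.7 in the 3 Col-0 arrays and at least 25866.7 in the 6 arrays of SPL13 and mSPL13. It drew attention because it lies outside the measurements compared above. By this measure every array went with its label as transformed or untransformed. The range was 25866.7 to 27664.8 in SPL13 and 28801.3 to 34604.3 in mSPL13, so the mSPL13 arrays lay above the SPL13 arrays without overlap.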

How the results depend on the processing

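The 12 differences of single members were recomputed under 219 combinations with an alternative, and 210 kept their direction and their side of the threshold. In mSPL13 against SPL13 the change ranged over 2.03 to 2.98 for ccb382, 1.86 to 2.86 for nad4, 1.27 to 1.84 for cox1 and 0.76 to 1.39 for orfX, and the first 3 passed in every one that tested them. The nad4 value of 1.86 came from the larger pseudocount (40th percentile). In mSPL13 against Col-0, ccb382 ranged from -0.071 without Col-0 replicate 3 to 0.72 without Col-0 replicate 1 when 1 array was left out. The filter at the 60th percentile kept 1 member, ccb382, which passed in mSPL13 against SPL13 and in the F test (1 of 1 in each). Median centring called 1 member in SPL13 against Col-0, with 24 probe sets in all and 16 plastid ones. With 1 array left out, the members called numbered 3 to 4 in mSPL13 against SPL13, 0 to 3 in SPL13 against Col-0, 0 in mSPL13 against Col-0 and 3 to 4 in the F test. The plastid counts then ranged over 27 to 51, 0 to 33 and 0 to 5, and the counts of all probe sets over 200 to 468, 1 to 148 and 248 to 903, in the same order of comparisons. Without a filter 236, 1 and 373 probe sets were called, and 30, 0 and 1 plastid ones. In SPL13 against Col-0 the larger pseudocount gave 14 probe sets and 9 plastid ones, eBayes without trend 1 and 0, and the fit of the compared groups 2 and 1. The plastid count in mSPL13 against Col-0 was 1 with the smaller pseudocount, with the stricter filter and without trend, and 4 with the compared groups. Array weights gave 688 probe sets in mSPL13 against SPL13. Replicate numbers are shared by the genotypes, and deviations of same-numbered arrays correlated at -0.06 to 0.15. Differently numbered arrays were not set beside them, so whether the numbers pair the arrays was not settled. With the replicate number as a block, 4, 0 and 0 members were called in the 3 comparisons and 3 of 4 in the F test, and the plastid count in SPL13 against Col-0 was 5. The cause of these changes was not tested, beyond the smaller or larger number of probe sets or arrays that an alternative itself sets. Low signal kept the 19 dim mitochondrial probe sets out of the test, and 3 arrays a genotype limit every exact permutation test to p = 0.1.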
